A study of Mus musculus with 35 samples.

Results

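A set of 785 open-chromatin regions was followed through the formation of blood stem cell precursors in the mouse embryo. Hemogenic endothelium at E8.5 and endothelium at E9.5 were both at least 2 times as accessible there as endothelium at E8.5. A region was a member when its mean accessibility in E8.5 hemogenic endothelium (HE) was at least 10 CPM (counts per 1000000 counts of the library) and at least 2 times that in E8.5 endothelial cells (EC), and when E9.5 EC also reached at least 2 times E8.5 EC. The rule found 785 of 73975 autosomal peaks, out of 76018 peaks in all. The regions were chosen by their mean CPM in E8.5 EC, E8.5 HE and E9.5 EC, so these values are given as a description with no test, and E8.5 EC stands in both ratios of the rule.

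Hemogenic endothelium is the small part of the lining of embryonic arteries whose cells lose their endothelial shape and become blood cells, a process called the endothelial-to-hematopoietic transition. The cells pass through precursor stages named pro-HSC, pre-HSC I and pre-HSC II before they become hematopoietic stem cells (HSC). ATAC-seq uses the Tn5 transposase to insert adapters into DNA that is not packed by nucleosomes, and the read count in a region measures how accessible it is. Many accessible regions away from gene starts are enhancers, stretches of DNA where transcription factors bind to raise the expression of a gene.

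The study profiled 35 libraries in 9 groups: EC and HE on each of 3 days (E8.5, E9.5, E10.5), pro-HSC/HPC on the middle day, and pre-HSC I and pre-HSC II on the last. Each group had 4 libraries except pro-HSC/HPC, which had 3, where HPC stands for hematopoietic progenitor cell. All groups carried the 23GFP transgene, whose promoter the labels do not give, and each library came from a pool of 1500 sorted cells amplified with 13 PCR cycles. The tissue was labelled PAS+VU for the E8.5 and E9.5 samples, with the E9.5 samples labelled E8.5 in that field, and AGM+VU for the E10.5 samples. The day and the dissected tissue therefore cannot be told apart between E9.5 and E10.5. The replicates are described as biological, but no label ties them to separate litters, and a p-value here reflects only how far these libraries vary. The labelled cell types were not checked against marker genes, because the peak table names no genes, and the regions are named by their position in genome build mm9.

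The libraries held 456770 to 7415315 counts in peaks, so that 3 counts stood for 6.57 CPM in the shallowest pre-HSC II library and 0.405 CPM in the deepest E9.5 HE library. The 4 pre-HSC II libraries were the shallowest group, at 456770 to 1241216 counts. Libraries 2 and 3 of pre-HSC I differed by less than sampling noise and were counted as 1 sample, which leaves n = 3. Libraries 1 and 4 of E10.5 HE stood apart from libraries 2 and 3 in depth and in the level of the regions, as given below, and counts of calls in comparisons with E10.5 HE are given with and without them.

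From E9.5 on, the mean share of all counts that fell in the regions was larger in EC and HE than in the precursors. They held 0.670% ± 0.0798 (SD, n = 4) of the counts in E8.5 EC, where the rule requires a low value, and 1.84% ± 0.105 in E8.5 HE. A day later it was 2.04% ± 0.121 in EC, 1.87% ± 0.229 in HE and 1.03% ± 0.0971 (n = 3) in pro-HSC/HPC. In E10.5 libraries the share was 1.88% ± 0.361 in EC and 1.38% ± 0.401 in HE, 0.876% to 1.08% over the libraries of pre-HSC I, and 0.641% ± 0.0562 in pre-HSC II. The pre-HSC II libraries, at 0.583% to 0.718%, lay inside the range of the E8.5 EC libraries, at 0.574% to 0.738%.

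The E10.5 HE libraries did not form a tight group. Libraries 2 and 3 had 1.77% and 1.68% of their counts in the regions, close to E10.5 EC, whereas libraries 1 and 4 had 1.06% and 1.01%, close to pre-HSC I. Libraries 1 and 4 also had the lower totals, 1215458 and 1101787 counts against 3115691 and 3690523. The share of counts in the 7601 highest of all peaks, a rough measure of signal over background, was 59.9% and 52.0% in libraries 1 and 4 and 59.5% and 65.6% in libraries 2 and 3. The same measure was 49.5% to 55.1% in E8.5 EC, 52.2% to 55.8% in E8.5 HE, 59.1% to 61.0% in E9.5 EC and 52.7% to 56.0% in pre-HSC II. The part of depth and of this measure in the level of the regions was not tested.

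**Figure D1:**
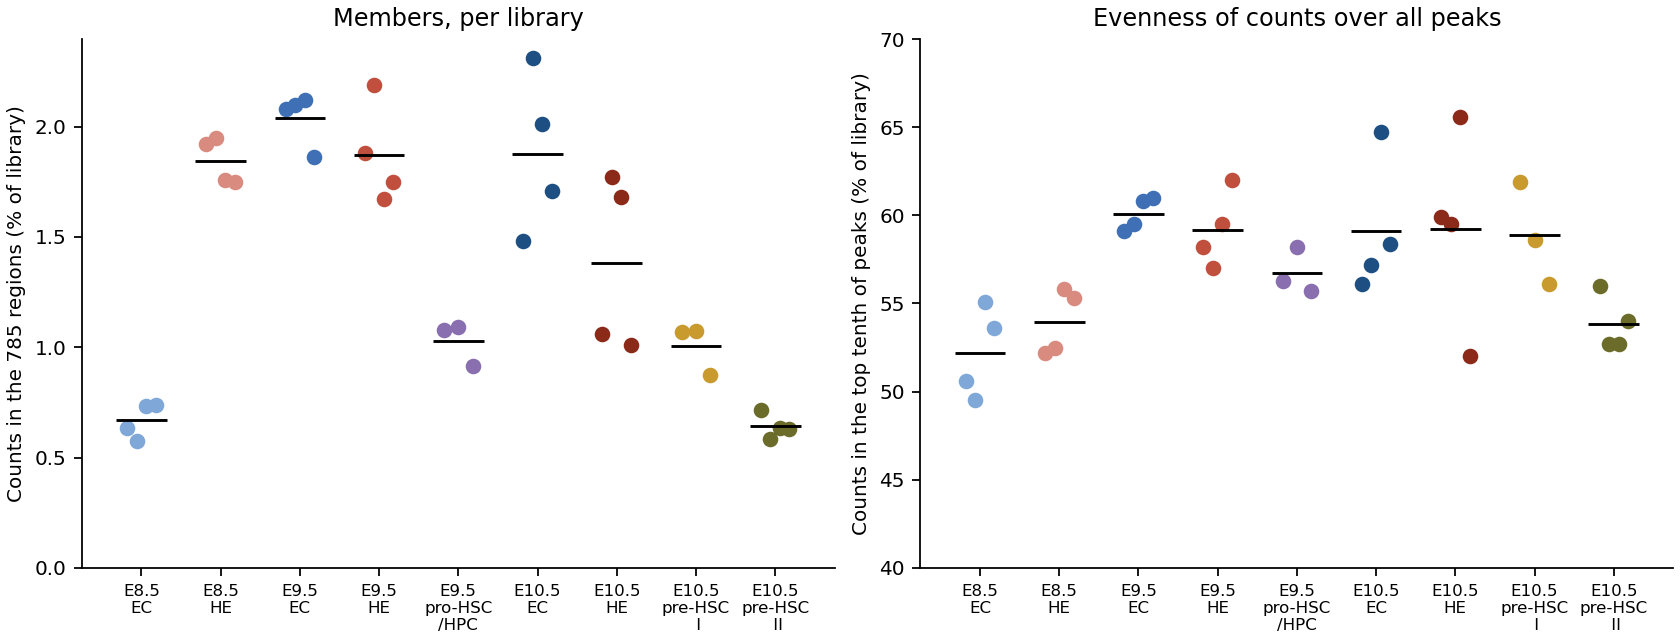
Left, percent of each library's counts that fall in the 785 regions; right, percent in the 7601 highest peaks; points are libraries and lines are group means. The share in the regions was between 1.48% and 2.31% in E10.5 EC and between 0.583% and 0.718% in pre-HSC II, and the E10.5 HE libraries split into 2 near 1% and 2 near 1.7%.

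By region, the median of the group means was 6.15 CPM in E8.5 EC, 17.2 in E8.5 HE, 18.9 in EC at E9.5 and 17.4 in HE at E9.5. It was 9.68 CPM in pro-HSC/HPC, 17.9 in E10.5 EC, 12.7 in E10.5 HE, 9.75 in pre-HSC I and 5.80 in pre-HSC II. Over all autosomal peaks the same median stayed between 3.67 and 5.38 CPM. The highest group mean of a region was in E9.5 EC for 240 regions, in E8.5 HE for 177, in E10.5 EC for 140, in E9.5 HE for 133 and in E10.5 HE for 54. Only 17 regions were highest in pro-HSC/HPC, 2 in pre-HSC I and 22 in pre-HSC II.

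**Figure D2:**
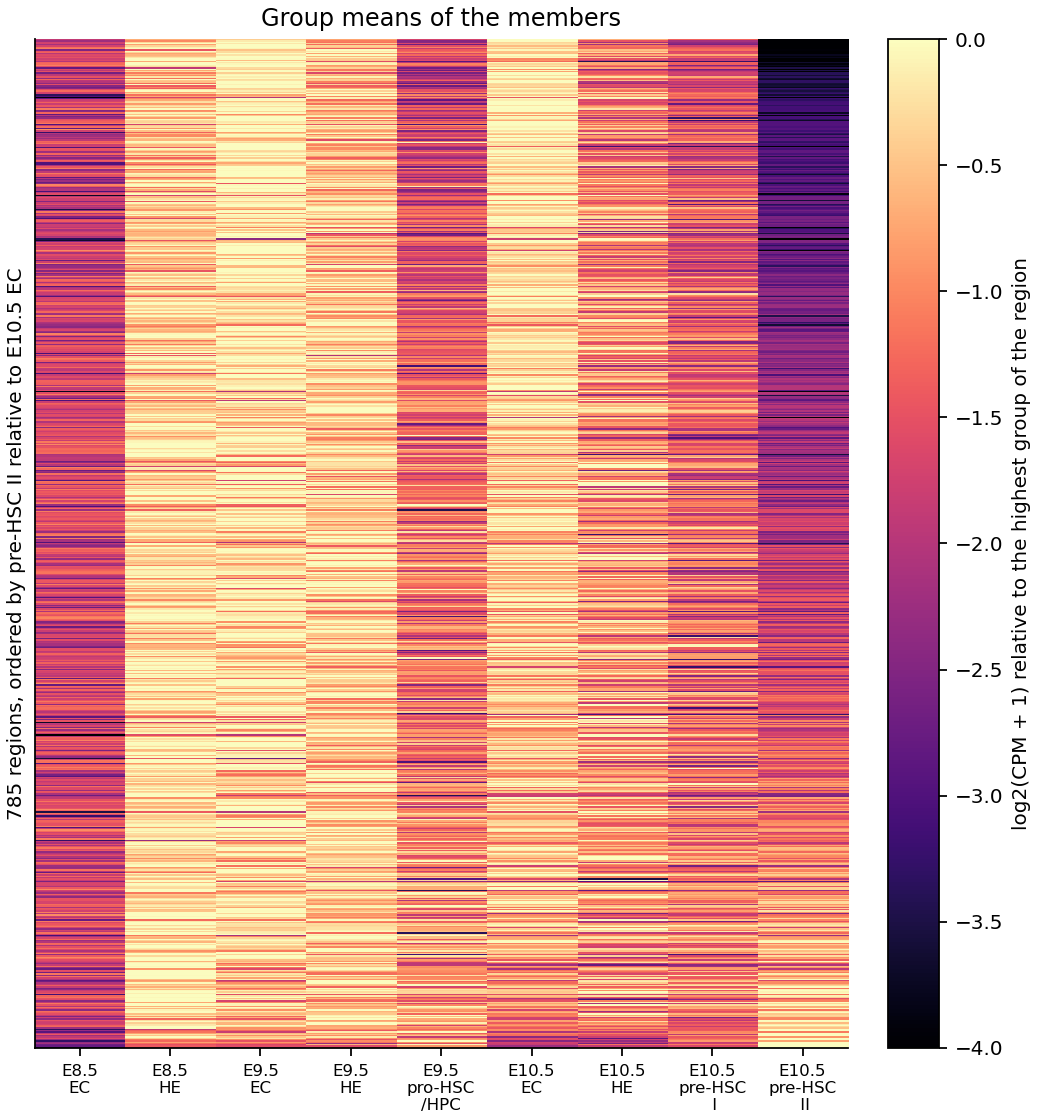
Each row is 1 of the 785 regions and each column a group, coloured by the log2(CPM + 1) of the group mean relative to the region's highest group, with rows ordered by pre-HSC II relative to E10.5 EC. Lower values are darker. Most rows are darker in E8.5 EC, which the rule requires, and in pre-HSC II, where the median level was 5.80 CPM against 17.9 CPM in E10.5 EC.

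The values the rule used were as follows. The ratio of E8.5 HE to E8.5 EC had a median of 2.73 and ran from 2.00 to 37.0, and that of E9.5 EC to E8.5 EC a median of 2.86, from 2.00 to 10.7. The libraries of E8.5 HE were all above those of E8.5 EC in 613 of the 785 regions, which holds for 5.74% of all peaks, and nothing is read from this count. E9.5 EC reached the level of E8.5 HE in about equal numbers of cases, with a median ratio of 1.03 and 424 regions above 1. Just inside the limit, chr5:106043505-106044277 had 10.0 CPM in E8.5 HE, and just outside it chr11:88047527-88048117 had 9.99 CPM. The ratio of E8.5 HE to E8.5 EC was 2.001 at chr14:28055338-28055825, inside, and 1.995 at chr19:9066911-9068122, outside. The ratio of E9.5 EC to E8.5 EC was 2.003 at chr1:17023840-17024424, inside, and 1.994 at chr2:4422477-4423198, outside. Of the 785 regions, 228 had a ratio under 2.2. A mean of at least 10 CPM was found for 202 of the 785 in E8.5 EC and for 685 in E9.5 EC. Opened therefore stands here for the ratio of at least 2 and not for a change from closed to open.

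Membership moved with the libraries. When each library of the 3 groups was left out in turn, the rule found 736 to 932 regions, which kept 78.1% to 97.2% of the 785. In a library left out of the choice, the chosen regions met the ratio of 2 in 45.2% to 56.2% of cases for E8.5 EC, against 4.98% to 10.1% of all autosomal peaks at 10 CPM or more in E8.5 HE. The figures were 73.0% to 77.0% for E8.5 HE, against 6.71% to 10.4%, and 67.8% to 89.2% for E9.5 EC, against 6.53% to 8.52%. In each ratio 1 side was the left-out library and the other the group mean on which the regions were chosen, so part of the excess is fixed by the choice, and the shares are a description. E8.5 EC libraries 1 and 2 and E8.5 HE libraries 1 and 2 were the shallower ones of their groups, and without these 4 libraries the rule found 746 regions, of which 438 were among the 785.

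The region with the most E8.5 HE signal was chr8:8993780-8995516, 1736 bp wide. It had 53.7, 33.9, 60.4 and 51.6 CPM in E8.5 EC libraries 1 to 4 and 138, 117, 158 and 142 CPM in E8.5 HE. The E9.5 EC libraries had 139, 149, 163 and 152 CPM, and the E9.5 HE libraries 192, 226, 177 and 234 CPM. All E9.5 HE libraries lay above all E9.5 EC libraries. At E10.5 the EC libraries had 120, 170, 207 and 131 CPM and the HE libraries 173, 171, 240 and 84.4 CPM, which overlap. The pre-HSC II libraries had 17.5, 17.9, 15.7 and 29.0 CPM, below all libraries of every other group.

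The largest ratios at E8.5, among regions with at least 3 counts in every E8.5 EC library, were 8.06 at chr14:77093255-77094536 and 5.51 at chr18:60820717-60821920. The first had 2.40, 3.98, 1.5 and 3.59 CPM in the E8.5 EC libraries and 23.9, 14.6, 29.5 and 24.4 CPM in E8.5 HE. A day later EC had 17.4, 17.5, 22.2 and 10.1 CPM, and HE 59.9, 74.0, 68.5 and 76.5 CPM. At E10.5 it had 35.0, 42.4, 53.7 and 31.8 CPM in EC and 75.7, 83.4, 88.3 and 25.4 CPM in HE, where library 4 fell below all EC libraries. The other region, at chr18:60820717-60821920, had 4.81, 3.98, 4.50 and 4.30 CPM in E8.5 EC and 24.5, 15.3, 31.1 and 26.0 CPM in E8.5 HE. Its E9.5 EC libraries had 19.8, 23.5, 18.8 and 17.0 CPM and its E9.5 HE libraries 63.8, 80.3, 73.9 and 84.1 CPM. At both regions E9.5 HE was about 4 times E9.5 EC, with ratios of 4.15 and 3.82.

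Both orders of HE and EC were found at E9.5. The ratio of E9.5 HE to E9.5 EC had a median of 0.862, with 59 regions at 2 or more and 78 at 0.5 or less. In 96 regions all E9.5 HE libraries lay above all E9.5 EC libraries, a pattern found in 7.53% of all peaks, and in 163 regions they lay below, found in 5.68% of all peaks. By edgeR 36 regions were higher in E9.5 HE than in EC and 25 lower, against 1.36% and 1.22% of all peaks tested. E9.5 EC was used by the rule, which required a high value there, so nothing is read from these counts or from their direction.

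**Figure D3:**
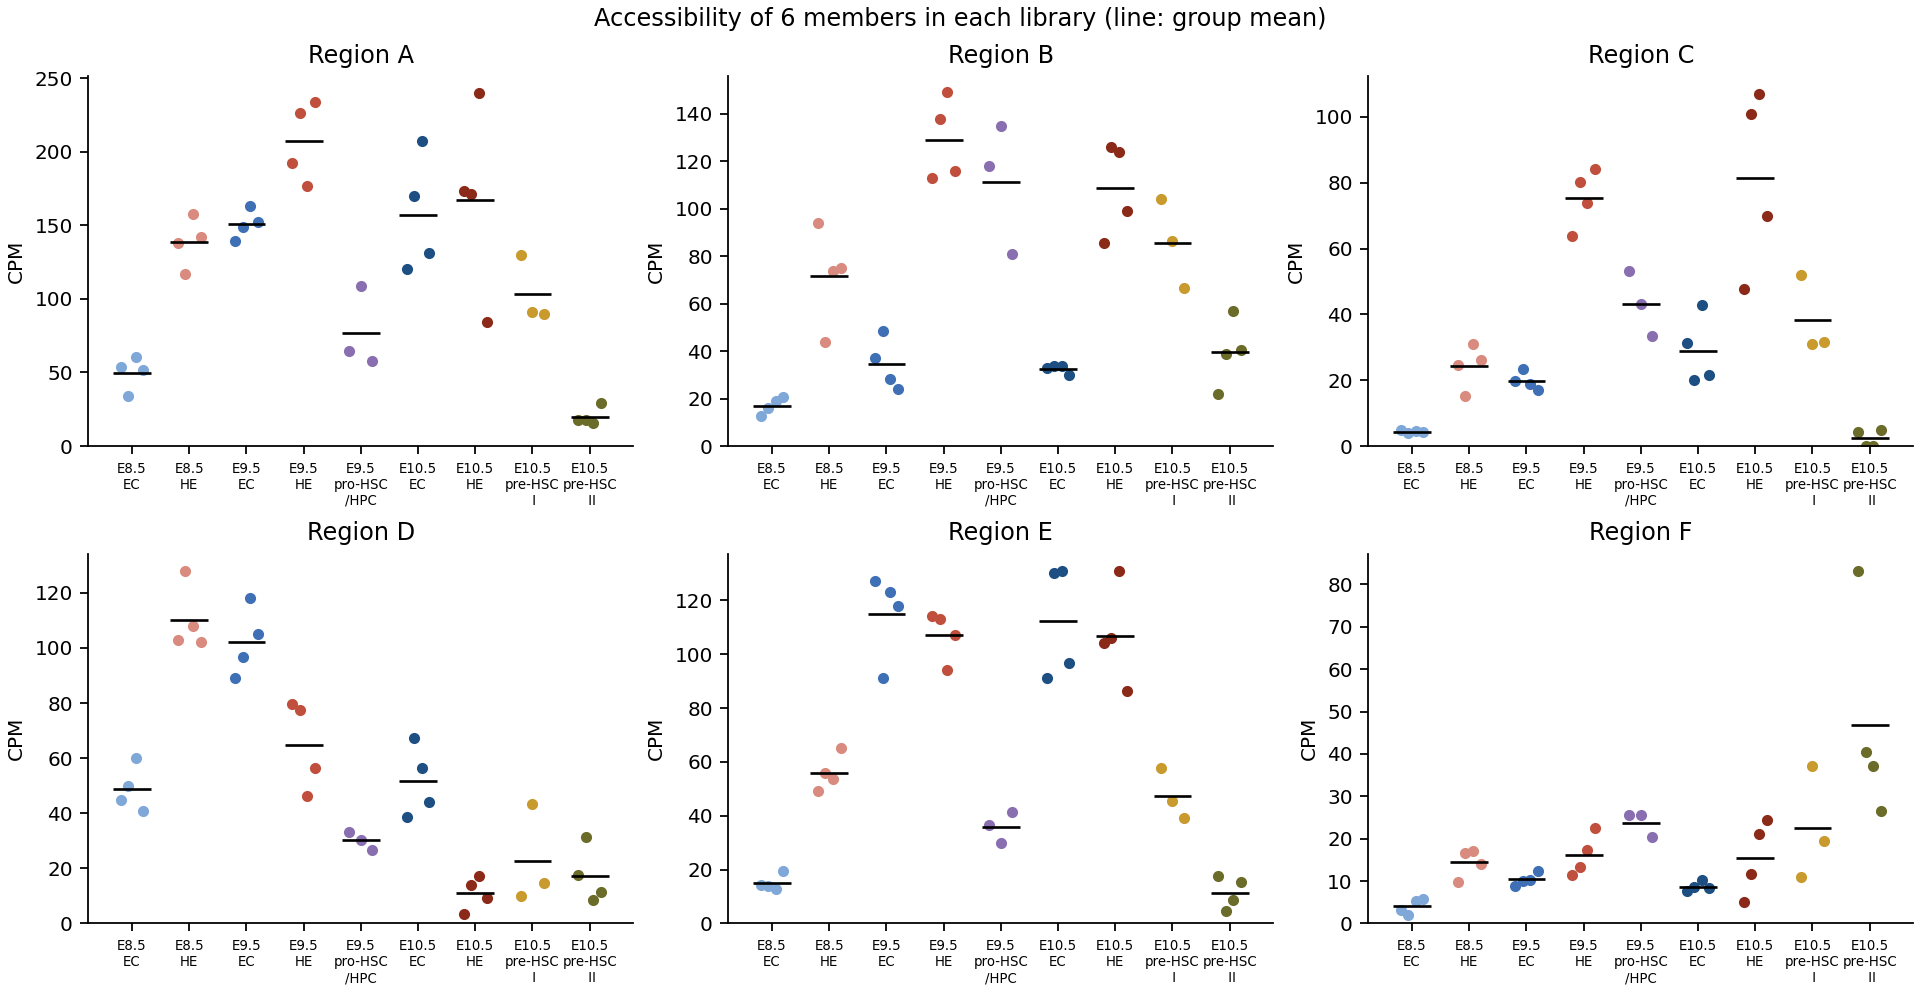
CPM in every library for 6 regions, with lines at group means: A, chr8:8993780-8995516; B, chr11:24126489-24127811; C, chr18:60820717-60821920; D, chr11:110426982-110428254; E, chr10:74826194-74828242; F, chr18:62348608-62349315. Regions B and C are higher in HE than EC at E10.5 and D is lower; A, C and E are lowest in pre-HSC II, and F is highest there.

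At E10.5 more of the regions were lower than higher in HE compared with EC of the same day. Neither group entered the rule, but the rule required a high E9.5 EC and set no condition on E9.5 HE. E10.5 EC stayed near E9.5 EC, with a median log2 fold change of -0.16 over the regions. The direction against E10.5 EC is therefore not independent of the choice, and the part of the choice in it was not tested. With edgeR's quasi-likelihood test and Benjamini-Hochberg adjustment over 67108 peaks, 13 of 785 regions were higher and 78 lower in HE at an adjusted p under 0.05. Over all peaks tested, 0.717% were called higher and 1.56% lower. The median log2 fold change was -0.58 over the regions and 0.01 over all peaks tested. Among autosomal peaks with at least 10 CPM in E8.5 HE, 0.892% were higher and 3.91% lower, with a median of -0.08. With cyclic loess scaling the calls were 21 higher and 61 lower, with the shares of all peaks not counted. In a bulk library, fewer cells with a region open and a region less open in each cell cannot be told apart.

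This comparison rested on the libraries of E10.5 HE that stand apart. Without E10.5 HE libraries 1 and 4, 16 regions were higher and 3 were lower, against 0.398% and 0.113% of the 72408 peaks then tested. The 13 higher calls were all among the 16, whereas 3 of the 78 lower calls were made again, and the other lower regions kept a negative fold change without passing the test. The median change was then -0.20 on the log2 scale over the regions and -0.08 over all peaks. Leaving out 1 library gave 35 calls in all without EC library 2, 44 without EC library 3, 37 without HE library 1 and 46 without HE library 4. It gave 83 without EC library 4, 97 without HE library 2, 129 without EC library 1 and 129 without HE library 3. The deviations of same-numbered HE and EC libraries from their group means were correlated, and blocking on the replicate number in a fit of these 2 groups alone gave 24 regions higher and 156 lower. The same 2 groups fitted alone with no block gave 4 higher and 4 lower. Shares of all peaks in these 2 fits were not counted.

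The region with the smallest adjusted p among those higher in HE was chr11:24126489-24127811. It had 33.1, 33.9, 33.6 and 30.1 CPM in E10.5 EC libraries 1 to 4 and 85.6, 126, 124 and 98.9 CPM in E10.5 HE. The groups did not overlap, and the log2 fold change was 1.69 ± 0.26 (SE), with an adjusted p of 0.000110 by edgeR. Its earlier values were 12.8, 15.9, 18.8 and 20.8 CPM in E8.5 EC and 94.2, 43.9, 73.7 and 75.2 CPM in E8.5 HE, followed at E9.5 by 37.2, 48.4, 28.2 and 23.9 CPM in EC and 113, 138, 149 and 116 CPM in HE. HE was above EC in every library at E10.5, and also on the earlier days, where the rule used E8.5 HE and both EC groups, while EC reached the 2-fold limit of the rule with a ratio of 2.02.

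The region at chr18:60820717-60821920, described above, was also higher in E10.5 HE, with 47.7, 101, 107 and 69.9 CPM against 31.2, 20.1, 43.0 and 21.5 CPM in EC. Its log2 fold change was 1.46 ± 0.29 with an edgeR adjusted p of 0.00261. At chr13:84710512-84711673 the HE libraries had 78.2, 82.8, 78.0 and 47.2 CPM and the EC libraries 29.3, 19.7, 29.6 and 18.8 CPM, a log2 fold change of 1.52 ± 0.33 with an edgeR adjusted p of 0.00433. For chr14:77093255-77094536, with HE library 4 below all EC libraries and the other HE libraries above them, the fold change was 0.73 ± 0.29 and missed the threshold, with an edgeR adjusted p of 0.210.

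Among the lower regions, chr11:110426982-110428254 had 38.7, 67.2, 56.5 and 44.2 CPM in E10.5 EC and 3.29, 13.8, 17.3 and 9.08 CPM in HE. The groups did not overlap, and the log2 fold change was -2.13 ± 0.32 with an edgeR adjusted p of 0.000110. At E8.5 the same region had 44.9, 49.8, 60.0 and 40.9 CPM in EC and 103, 128, 108 and 102 CPM in HE, the second highest mean of all the regions. The rule requires HE above EC at E8.5, so the order there is not a test, and its condition on E9.5 EC bears on the order at E10.5. The region at chr5:149976189-149977107 had 39.7, 76.0, 67.2 and 53.3 CPM in E10.5 EC and 4.94, 23.4, 16.0 and 13.6 CPM in HE, a log2 fold change of -2.00 ± 0.33 with an edgeR adjusted p of 0.000323. In both lower regions the deeper HE libraries 2 and 3 were also below all EC libraries, and both calls were made again without HE libraries 1 and 4.

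The values of 2 neighbouring sets, made by turning round 1 condition of the rule, stood on either side. Among 1078 autosomal peaks that met the E8.5 HE conditions but whose E9.5 EC stayed under 2 times E8.5 EC, 50 were higher and 11 lower in E10.5 HE, with a median log2 fold change of 0.05. Among 786 peaks that E9.5 EC had opened while E8.5 HE, at 10 CPM or more, stayed under 2 times E8.5 EC, 1 was higher and 237 lower, with a median of -0.98. The 785 regions lay between them at -0.58. Without E10.5 HE libraries 1 and 4 the calls were 47 higher and 0 lower in the first set, with a median of 0.21, and 1 higher and 12 lower in the other, with a median of -0.61. The 3 sets were all chosen on E8.5 HE and E9.5 EC, and the difference between them was not tested.

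**Figure D4:**
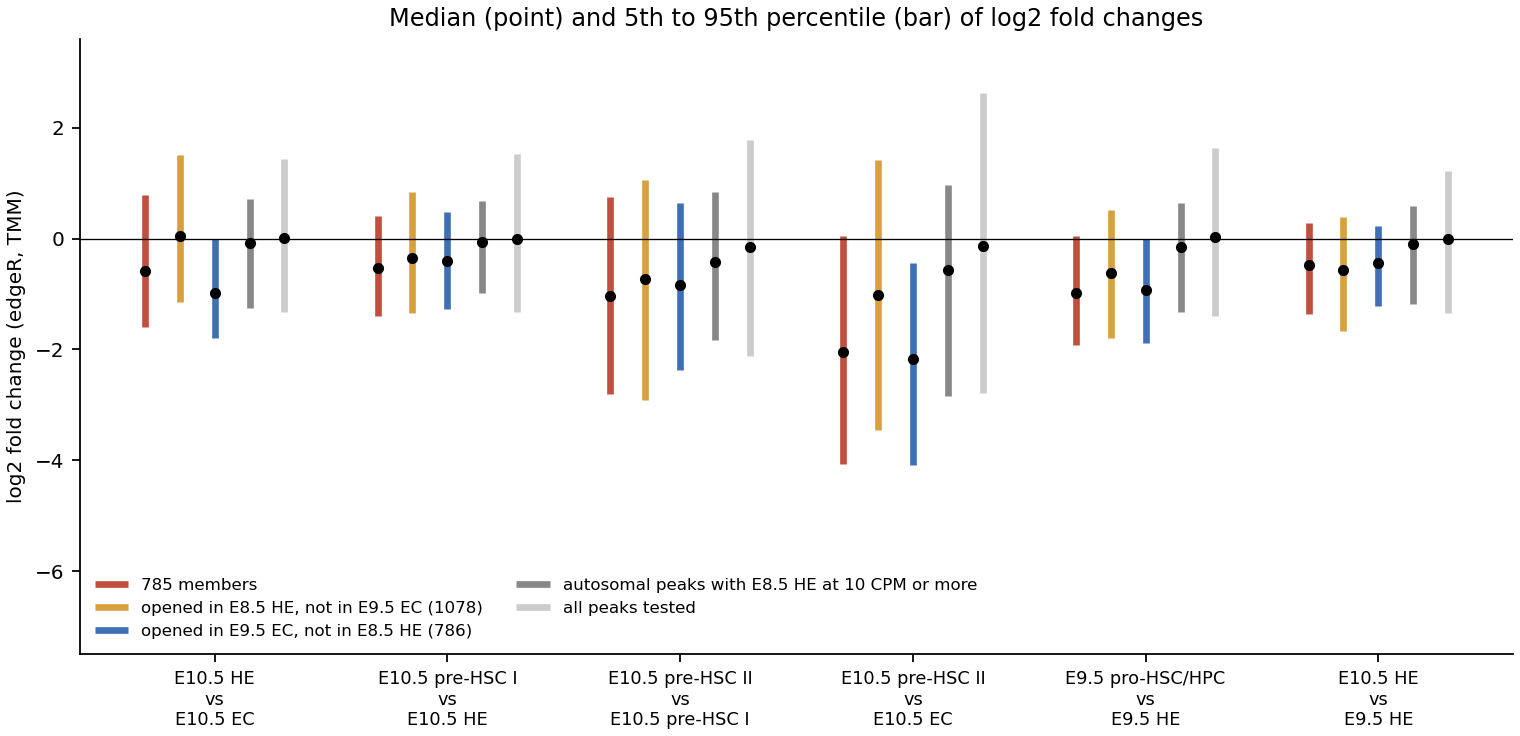
Median log2 fold change (point) and the range from the 5th to the 95th percentile (bar) of the 785 regions, the 2 neighbouring sets, all autosomal peaks at 10 CPM or more in E8.5 HE and all peaks tested, in 6 comparisons. The median of the 785 regions is below 0 in each comparison and furthest below in pre-HSC II against E10.5 EC, at -2.05.

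The step from E10.5 HE to pre-HSC I brought few calls. By edgeR, 1 region was higher and 2 were lower in pre-HSC I, where 0.0656% of all peaks were called higher and 0.0149% lower. The median log2 fold change was -0.53 over the regions and 0.00 over all peaks tested. The rule chose high values in E8.5 HE and E9.5 EC, and the part of this choice in the direction was not tested. At an unadjusted p under 0.05, 7 regions were higher and 159 lower. Blocking on the replicate number left edgeR with 0 calls, with 8 higher and 142 lower at an unadjusted p under 0.05, and DESeq2 without the block called 2 higher and 18 lower. Shares of all peaks at an unadjusted p, with the block or by DESeq2 were not counted. Without E10.5 HE libraries 1 and 4, which had levels near those of pre-HSC I, 0 regions were higher and 89 lower, against 0.268% and 0.771% of all peaks tested. Leaving out 1 library gave 0 to 10 calls: 0 without HE library 3 or without the merged pre-HSC I sample, 1 higher without HE library 2, 5 lower without HE library 1 and 10 lower without HE library 4. Without pre-HSC I library 1 there were 3 higher and 1 lower, and without library 4 there were 2 higher and 0 lower, so the direction of these few calls turned with single libraries.

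The lower region with the smallest adjusted p was chr10:74826194-74828242, the widest of the regions named here at 2048 bp. It had 104, 106, 131 and 86.2 CPM in E10.5 HE and 57.6, 45.3 and 39.0 CPM in pre-HSC I, which do not overlap. The log2 fold change was -1.22 ± 0.26 with an edgeR adjusted p of 0.0347. The call was lost with the replicate block, in a fit of the 2 groups and after thinning. It was also lost without HE library 2 or 3, the merged pre-HSC I sample or pre-HSC I library 4. The region called higher, chr2:170073148-170073977, had 1.65, 1.93, 1.35 and 0 CPM in HE and 3.67, 20.3 and 2.44 CPM in pre-HSC I. Its call, at an edgeR adjusted p of 0.0436, rested on the merged sample of libraries 2 and 3 at 20.3 CPM. It was lost without that sample, without HE libraries 1 and 4 and without any single HE library. The replicate block, thinning, no count filter and RLE or cyclic loess scaling lost it as well.

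From pre-HSC I to pre-HSC II the regions lost accessibility in larger numbers. By edgeR 3 were higher and 182 lower, against 0.845% and 4.14% of all peaks tested. The median log2 fold change was -1.03 over the regions and -0.16 over all peaks. Among autosomal peaks with at least 10 CPM in E8.5 HE, 0.645% were higher and 9.98% lower, with a median of -0.42. As in the step before, the part of the choice in the direction was not tested. Cyclic loess scaling moved the median of all peaks up by 0.59 and gave 25 regions higher and 81 lower, with a median of -0.42 over the regions against 0.43 over all peaks. Leaving out pre-HSC I library 1 gave 111 calls and leaving out pre-HSC II library 2 gave 116. The share called lower in the neighbouring sets was 140 of 1078 and 159 of 786.

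The region at chr18:60820717-60821920 had 52.1, 31.0 and 31.7 CPM in pre-HSC I and 4.38, 0, 0 and 4.83 CPM in pre-HSC II. The log2 fold change was -4.13 ± 0.51 with an edgeR adjusted p of 2.57e-07, so this region, which was higher in E10.5 HE than in EC, was nearly without counts in pre-HSC II. Of the 13 regions higher in E10.5 HE than EC, 11 were lower in pre-HSC II than in pre-HSC I, and of the 78 lower in HE, 18 were. With the HE calls made without libraries 1 and 4 the numbers were 14 of 16 and 1 of 3. Over all 785 regions 23.2% were lower in this step, near the 23.1% of the 78, and over all peaks tested 4.14%. The share among all peaks called higher in E10.5 HE was not counted, and the difference was not tested. In the opposite direction, chr10:82646338-82647623 had 11.0, 17.4 and 14.0 CPM in pre-HSC I and 43.8, 64.3, 59.9 and 38.7 CPM in pre-HSC II. Its log2 fold change was 1.57 ± 0.39 with an edgeR adjusted p of 0.00991, a call lost without pre-HSC I library 1.

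Between E10.5 EC and pre-HSC II, most of the regions were lower in pre-HSC II. By edgeR 566 of 785 were lower and 9 higher, against 16.2% and 9.15% of all peaks tested. The median log2 fold change was -2.05 over the regions and -0.14 over all peaks. The share was 353 of 1078 peaks where E9.5 EC had not opened, with a median of -1.02, and 659 of 786 where E8.5 HE had not, with a median of -2.17. In the 21863 autosomal peaks with at least 10 CPM in E8.5 HE, 7467 were lower, with a median of -0.56. Other scalings moved the median of all peaks up, RLE by 0.27, library totals by 0.34 and cyclic loess by 0.69. They left 498, 479 and 379 of the 785 regions lower, with medians of -1.78, -1.70 and -1.23. Thinning all libraries to 456770 counts, the total of the shallowest, left 585 of the 785 regions in the test, of which 361 were lower and 13 higher, where the same 585 had 466 lower and 8 higher calls before thinning. This comparison shares pre-HSC II with the one before it and EC with the one of HE, so the lists are not independent. The rule required a high E9.5 EC, so lower calls against E10.5 EC are not independent of the choice either.

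At chr10:74826194-74828242 the E10.5 EC libraries had 91.2, 130, 131 and 96.7 CPM and the pre-HSC II libraries 17.5, 4.48, 8.56 and 15.3 CPM. The log2 fold change was -3.63 ± 0.30 with an edgeR adjusted p of 1.12e-13. At chr14:86708548-86709572 the EC libraries had 88.8, 99.8, 108 and 54.7 CPM and the pre-HSC II libraries 4.38, 0, 2.85 and 5.64 CPM, a log2 fold change of -4.97 ± 0.46 with an edgeR adjusted p of 3.37e-12. At chr8:8993780-8995516, the region with the most E8.5 HE signal, the change was -3.27 ± 0.31 with an edgeR adjusted p of 5.33e-12. In each of these 3 regions the libraries of EC and pre-HSC II were far apart with no overlap.

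At 14 of the regions the pre-HSC II libraries had 0 counts in all 4 libraries. A floor of 3 counts over the group stands for 0.978 CPM. If counts are separate events, chr2:29151104-29151793, at 13.3 CPM over the E10.5 EC libraries together, would be at least 13.6-fold lower in pre-HSC II. In the same way chr15:62048053-62048702, at 10.1 CPM in EC, would be at least 10.4-fold lower. The bounds of the 14 regions ran from 4.05 to 16.6, and they cover counting error only. They would be smaller if reads come in pairs, and 67.1% to 77.5% of counts from 10 to 49 were even in the pre-HSC II libraries. The 14 regions were picked for their 0 counts, and the share of all peaks with 0 counts in these shallow libraries was not counted.

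A small number of regions ran the other way. At chr18:62348608-62349315 the E10.5 EC libraries had 7.56, 8.56, 10.3 and 8.29 CPM and the pre-HSC II libraries 83.2, 40.4, 37.1 and 26.6 CPM. The groups did not overlap, and the log2 fold change was 1.97 ± 0.39 with an edgeR adjusted p of 8.82e-05. At chr5:126274446-126275180 the EC libraries had 6.61, 10.2, 2.80 and 5.80 CPM and the pre-HSC II libraries 30.6, 44.8, 32.8 and 26.6 CPM, a change of 2.04 ± 0.45 with an edgeR adjusted p of 0.000348. At chr10:57816976-57817978 the EC libraries had 13.2, 17.1, 14.9 and 9.39 CPM and the pre-HSC II libraries 32.8, 59.8, 55.6 and 38.7 CPM, a change of 1.40 ± 0.32 with an edgeR adjusted p of 0.000731. That region was highest in pro-HSC/HPC, at 79.0, 83.4 and 81.1 CPM. Over these 3 regions E10.5 EC lay between 2.80 and 17.1 CPM and pre-HSC II between 26.6 and 83.2 CPM. In pre-HSC I, chr5:126274446-126275180 had 11.0, 11.0 and 8.53 CPM, inside the range of E10.5 HE at 1.82 to 13.5 CPM.

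At E9.5 pro-HSC/HPC had lower levels than HE, with a median region of 9.68 CPM, which is above the 5.80 CPM of pre-HSC II. By edgeR 121 of 785 regions were lower than in E9.5 HE and 0 were higher, against 1.09% and 0.645% of all peaks tested. At an unadjusted p under 0.05, 453 were lower and 2 higher, and DESeq2 called 233 lower and 0 higher. For these settings the shares of all peaks were not counted. The median log2 fold change was -0.98 over the regions and 0.03 over all peaks. Neither group entered the rule, but E9.5 HE lay near the groups that did. Its median ratio was 0.937 to E8.5 HE and 0.862 to E9.5 EC. The direction is therefore not independent of the choice, and the part of the choice in it was not tested. The neighbouring set opened in E9.5 EC but not in E8.5 HE had much the same values, with 124 of 786 lower and a median of -0.92. The other neighbouring set had 55 of 1078 lower and a median of -0.63. Among autosomal peaks with at least 10 CPM in E8.5 HE, 2.70% were lower. In 382 regions all pro-HSC/HPC libraries lay below all E9.5 HE libraries, found in 7.59% of all peaks. The number of calls fell to 35, 43 and 37 without pro-HSC/HPC library 1, 2 or 3, and to 68 and 43 without E9.5 HE library 1 or 2.

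At chr10:74826194-74828242 the E9.5 HE libraries had 114, 113, 94.0 and 107 CPM and the pro-HSC/HPC libraries 36.5, 30.0 and 41.4 CPM, a log2 fold change of -1.68 ± 0.27 with an edgeR adjusted p of 0.000304. At chr14:103432162-103433137 they had 39.4, 42.2, 41.9 and 39.6 CPM and 5.25, 15.0 and 7.30 CPM, a change of -2.24 ± 0.37 with an edgeR adjusted p of 0.000451. At chr16:87715887-87717359 they had 70.9, 56.4, 58.7 and 75.4 CPM and 25.2, 13.2 and 14.6 CPM, a change of -1.92 ± 0.31 with an edgeR adjusted p of 0.000451. Each region was also high in E9.5 EC and E10.5 EC, with means of 72.3 and 108 CPM at the last. Of the 121 regions lower in pro-HSC/HPC, 112 were also lower in pre-HSC II than in E10.5 EC, as were 566 of all 785.

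Across the 2 later days of HE itself, 16 regions were lower at E10.5 than at E9.5 and 0 higher by edgeR, against 0.492% and 0.0626% of all peaks tested. At an unadjusted p under 0.05, 189 were lower and 0 higher, and DESeq2 called 62 lower and 0 higher, with the shares of all peaks not counted. The median log2 fold change was -0.48 over the regions and -0.01 over all peaks. Because E9.5 HE lay near the groups of the rule, this direction is not independent of the choice either. Without E10.5 HE libraries 1 and 4, 4 regions (0.510%) were lower and 0 higher, against 0.0456% and 0.00276% of the 72408 peaks then tested. The median change was then -0.12 over the regions and -0.07 over all peaks, so most of the fall rested on these 2 libraries. Leaving out 1 library gave 7 calls without E10.5 HE library 1, 32 without library 2, 52 without library 3 and 8 without E9.5 HE library 2. At chr2:170073148-170073977 the E9.5 HE libraries had 15.0, 10.4, 18.5 and 16.7 CPM and the E10.5 HE libraries 1.65, 1.93, 1.35 and 0 CPM, a log2 fold change of -3.39 ± 0.54 with an edgeR adjusted p of 0.000157. At chr12:3392780-3393605 they had 26.0, 23.1, 20.7 and 22.9 CPM and 1.65, 7.06, 3.25 and 1.82 CPM, a change of -2.59 ± 0.42 with an edgeR adjusted p of 0.000226. The first of these calls was lost after thinning and the second without E10.5 HE libraries 1 and 4. In the fit with all libraries, lower calls at E10.5 were not particular to the 785 regions, of which 2.04% were called lower. In the neighbouring sets 34 of 1078 (median log2 fold change -0.57) and 15 of 786 (median -0.45) were called lower. Among autosomal peaks with at least 10 CPM in E8.5 HE the share was 1.31%.

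The rule kept autosomes only and did not use spacing, while width bears on it through the CPM minimum. The width of the regions was 810 bp at the median and 270 to 2256 bp at the extremes, against 743 bp where E9.5 EC had not opened, 913 bp where E8.5 HE had not, and 495 bp over all autosomal peaks. Wider peaks collect more counts, and autosomal peaks with at least 10 CPM in E8.5 HE had a median of 1077 bp. Of the 785, 188 regions (23.9%) lay within 50 kb of another, against 18.8% and 28.4% in the neighbouring sets. As a share of a chromosome's peaks, they made up 1.06% over all autosomes, most on chromosome 13 (1.87%) and chromosome 18 (1.71%) and least on chromosome 4 (0.648%).

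When regions within 50 kb of each other were joined, 597 stood alone, 68 pairs formed, and 9 clusters held 3, 5 held 4 and 1 held 5. The largest cluster spanned 63731 bp at chr9:32693464-32757195 and held 5 of the 7 peaks in that span. Its tallest region in E8.5 HE, chr9:32708507-32709714, had 46.5, 31.9, 36.8 and 43.7 CPM in E8.5 EC and 97.9, 90.5, 91.2 and 83.4 CPM in E8.5 HE. EC had 111, 122, 155 and 130 CPM at E9.5 and 87.9, 116, 153 and 102 CPM at E10.5, and pre-HSC II had 0, 5.98, 11.4 and 12.9 CPM. All 5 regions of the cluster were lower in pre-HSC II than in E10.5 EC by edgeR, with log2 fold changes from -4.07 to -1.83, and 2 were lower in E10.5 HE than in EC, or 0 without HE libraries 1 and 4. Over all 785 regions 72.1% were lower in pre-HSC II, against 16.2% of all peaks tested. In E10.5 HE 9.94% of the regions were lower, against 1.56% of all peaks, or 0.382% against 0.113% without HE libraries 1 and 4.

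The next cluster, at chr11:110412569-110428254, held 4 of 6 peaks in 15685 bp and ended in the region whose E8.5 HE level was the second highest. In this cluster 3 regions were lower in E10.5 HE than in EC, or 1 without HE libraries 1 and 4, and 3 were lower in pre-HSC II than in EC. At chr6:116584973-116600929 all 4 peaks in 15956 bp were members, of which 2 were lower in pre-HSC II than in EC and 0 differed between E10.5 HE and EC by edgeR. The log2 fold changes of these 4 in pre-HSC II against EC ran from -3.20 to -0.17, and the difference between them was not tested. With 72.1% of all 785 regions lower in pre-HSC II, the counts in such small clusters are a description and not a trait of the clusters.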

How the data were processed

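Reads per peak were deposited by the authors as raw counts, not normalized, in 1 table of 35 ATAC-seq libraries. The submitters' processing notes name build mm9 and, with no role or order, MACS2 2.0.1, DiffBind 1.14.6, Bowtie 1.0.0, Trim Galore 0.3.1, deepTools, bedtools 2.17.0 and SAMtools. Their settings, any read shift to the transposase's position and the first base of the positions (0 or 1) are not given in the sources used here. Of the counts from 10 to 49, 54.1% to 78.2% per library were even, so reads may come in pairs, and floors and intervals cover at most counting error.

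CPM is a count over its column sum times 1000000, and group values are means ± SD over libraries. Pre-HSC I libraries 2 and 3 differed by 0.466 (chi-square over its degrees of freedom), where 50 other pairs gave 2.684 to 8.928, and their mean entered as 1 sample, leaving 34. After filterByExpr by group 67108 peaks were tested, among them all 785 regions. Counts were scaled by TMM and tested two-sided with edgeR 4.0.16 (glmQLFTest) in 1 fit with 25 residual degrees of freedom, with Benjamini-Hochberg adjustment over all peaks and a threshold of 0.05. The SE is the fold change over the square root of F. On counts simulated with the fitted common dispersion for E10.5 HE against EC, over 59508 peaks in the fit, the test called 80 of 100 peaks raised 4-fold, 59 of 100 lowered 4-fold and 9 of 59308 unchanged peaks, so lower changes of this size can be missed.

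Replicate numbers were taken to pair libraries where every same-number correlation of deviations was over 0.1: 0.42, 0.33, 0.48 and 0.15 for E10.5 HE with EC, and 0.18, 0.18, 0.17 and 0.15 for pre-HSC I with HE. In the latter another number correlated more highly for numbers 2, 3 and 4 (0.23, 0.18 and 0.16), and numbers 2 and 3 are the merged sample, so that pairing is weak. The pairing comes from the numbers in the titles.

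The regions, the neighbouring sets and the tests were chosen with earlier results of these data known. Named are the regions highest in E8.5 HE or in its ratio to E8.5 EC, those nearest each threshold, the 3 with the smallest adjusted p per comparison and direction (log2 fold change of at least 1, no overlap of libraries), those in the densest clusters, and those with extreme ratios of pre-HSC II to E10.5 EC. The text gives a part of them. The positions are mm9 and the reference tables of another build, so genes and sequences were not used here. Versions were DESeq2 1.42.0, limma 3.58.1, R 4.3.3, pandas 2.3.3, numpy 2.4.6, matplotlib 3.10.9, scipy 1.17.1 and Python 3.11.15. Alternatives tried were other scalings, DESeq2, no filter, fits of 2 groups, replicate blocks, thinning and leaving out libraries. Leaving out E10.5 HE libraries 1 and 4 or E9.5 EC libraries 3 and 4 and HE library 4 (high on chromosome X), keeping the merged libraries apart and blocking in fits of 2 groups were chosen after seeing the data.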

Additional observations from a re-analysis of the deposited data

Results flagged for a closer look

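In 3 cases 1 library of a group of 4 lay far from the other 3. At chr13:84710512-84711673 E10.5 HE library 4 had 47.2 CPM, against 78.0 to 82.8 CPM in the others. At chr8:8993780-8995516 pre-HSC II library 4 had 29.0 CPM, against 15.7 to 17.9 CPM. The share of counts in the 785 regions was 1.86% in E9.5 EC library 4, against 2.08% to 2.12% in the others. Chance alone flags about 1 in 20 groups of this size.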

How the results depend on the processing

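The counts of called regions kept their main direction in each alternative with calls in 4 of the 6 comparisons; the exceptions were E10.5 HE against EC, with 16 higher and 3 lower without E10.5 HE libraries 1 and 4 and equal numbers in a fit of the 2 groups, and pre-HSC I against HE, with equal numbers after scaling by total counts, 1 higher call alone without HE library 2, 3 higher and 1 lower without pre-HSC I library 1, and 2 higher and 0 lower without pre-HSC I library 4. The causes of the shifts below were not tested. Among the alternatives, shares of all peaks called were counted only without E10.5 HE libraries 1 and 4. Fits of 2 groups, thinning and leaving out libraries use fewer counts or samples. Calls fell in many of these but rose in others, as for pro-HSC/HPC against E9.5 HE in a fit of the 2 groups. After thinning 585 regions were tested, and 481 to 776 in fits of 2 groups.

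For E10.5 HE against EC, 91 calls became 8 in a fit of the 2 groups, 180 in that fit with the replicate block, 54 after thinning and 19 without E10.5 HE libraries 1 and 4, and 35 to 129 without 1 library. For pre-HSC I against HE, 3 calls became 20 by DESeq2, 20 with libraries 2 and 3 apart, 0 in a fit of the 2 groups with or without the replicate block, 0 with the block in the full fit, 0 after thinning, 89 without E10.5 HE libraries 1 and 4, and 0 to 10 without 1 library. For pre-HSC II against pre-HSC I, 185 calls became 106 by loess, 46 in a fit of the 2 groups, 77 after thinning and 111 to 189 without 1 library. For pre-HSC II against EC, 575 calls became 374 after thinning and 513 to 603 without 1 library.

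For pro-HSC/HPC against E9.5 HE, 121 calls became 233 by DESeq2, 73 by loess, 340 in a fit of the 2 groups, 39 after thinning, 60 without E9.5 EC libraries 3 and 4 and HE library 4, and 35 to 107 without 1 library. For HE at E10.5 against E9.5, 16 calls became 62 by DESeq2, 25 by RLE, 7 in a fit of the 2 groups, 34 with the replicate block, 4 without E10.5 HE libraries 1 and 4, and 7 to 52 without 1 library. The replicate numbers do not pair the libraries of the last 4 comparisons, where the block gave 200, 573, 157 and 34 calls. The rule found 1258 regions with TMM-scaled CPM, 2019 at a ratio of 1.5, 181 at a ratio of 3, 1609 at 5 CPM, 316 at 20 CPM and 736 to 932 without 1 library. Of 454 refits of named regions, 404 kept their call, 50 lost it and 0 changed direction.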
